A study of Mus musculus with 2 samples.

Results

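The cells described here carried mRNA of Wt1, Gata4, Gata6 and Adamts18 together with mesenchyme genes, in droplet single-cell RNA libraries of mouse embryonic tissue labelled brain. A barcode (the tag of 1 droplet, taken as 1 cell) was a member if it held at least 1 UMI (unique molecular identifier, 1 counted mRNA molecule) of at least 2 of 5 visceral genes. These were Wt1, Wt1os, Gata4, Gata6 and Adamts18. It also had to hold a UMI of at least 1 of the 8 mesenchyme genes Pdgfra, Col1a1, Col1a2, Col3a1, Lum, Dcn, Postn and Twist2. Finally it had to hold none of Cdh5 (endothelium), Epcam (epithelium), Hnf4a (hepatocyte) and Myh6 (heart muscle). The rule found 587 of 37628 barcodes in all, 38 of 19056 in the NTD library and 549 of 18572 in the control library.

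The study asked how ALKBH1, DNA N6-methyladenine and H3K9me3 bear on neural tube defects (NTD). The NTD library came from embryos whose dams ate a low-folate diet and received 1.5 mg/kg methotrexate, a folate antagonist, into the peritoneum on gestational day 7.5. Closure of the neural tube was scored between E9.5 and E10.5, and NTD embryos were small and delayed, mostly with hindbrain malformation or spina bifida. The control library carries the treatment label normal saline, and its embryos had a closed neural tube. The number and exact age of the embryos behind each library, their strain, and how the tissue was cut are not stated by the labels. With 1 library a group, the drug, the diet, the developmental delay, the sex of the embryos, the cut of the tissue and the library cannot be told apart, and no test between groups exists. All intervals are 95% and cover counting error only.

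Wt1 encodes a zinc-finger transcription factor of the mesothelium, the epicardium, the kidney and the gonad. In these linings of the body cavity it keeps cells able to leave the sheet and become mesenchyme. GATA4 and GATA6 are zinc-finger factors of the heart, the septum transversum, the gut wall and other lateral plate derivatives, and ADAMTS18 is a secreted metalloprotease. Mesenchyme of the head comes mainly from neural crest and paraxial mesoderm. Wt1os is a long non-coding RNA made from the opposite strand beside Wt1.

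In the GENCODE annotation of GRCm38, Wt1 lies on chromosome 2 from 105126529 to 105173616 on the plus strand. Wt1os lies on the same chromosome from 105076538 to 105126510 on the minus strand, so that the starts of both genes face away from each other. The short stretch between both starts is shown because Wt1 and Wt1os count as 2 of the 5 visceral genes although they share this locus. The sequence is from RefSeq (GRCm38.p6), chr2:105126461-105126558, minus strand, 98 bases. The 18 capitals are the bases between both starts, the 30 bases before them belong to the first exon of Wt1 (here in antisense), and the 50 bases after them are the start of Wt1os.
Wt1os: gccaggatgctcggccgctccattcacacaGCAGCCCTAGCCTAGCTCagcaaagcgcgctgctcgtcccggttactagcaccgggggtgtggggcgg
The 300-base promoter window of Wt1os that ends with this stretch held 16 CpG pairs at a GC content of 66.7%, against medians of 7 pairs and 52.7% over 32851 windows of the same length. Of all windows, 33.0% held at least as many CpG pairs. Members that met the visceral criterion with Wt1 and Wt1os alone numbered 5 of 38 in the NTD library (13.2%) and 70 of 549 in the control library (12.8%).

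The libraries held 55524355 UMIs (NTD) and 50741121 UMIs (control), with medians of 2456 and 2234 UMIs a barcode. Members were deeper, at a median of 3727 UMIs in the NTD library (1603 to 35975) and 3245 in the control library (1335 to 60316). The NTD members summed to 234296 UMIs, of which the 5 deepest barcodes held 42.0%, whereas the 5 deepest held 7.92% of the 2544450 UMIs of the control members. Ribosomal protein genes took a median of 12.3% of the UMIs of NTD members and 6.96% of those of control members. The same gap stood over all barcodes (13.5% in NTD, 8.61% in control), so it was not particular to the members. The doublet caller Scrublet marked 11 of 38 NTD members (28.9%) and 116 of 549 control members (21.1%), against 12.6% and 16.4% of all barcodes. Of 105 barcode sequences found in both libraries, none was a member in NTD and 3 were members in control. Neural tissue was well represented under the label brain: 6931 NTD barcodes and 3843 control barcodes held at least 4 of 14 neuron genes.

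Members made up 0.199% of the NTD barcodes (0.141 to 0.274%) and 2.96% of the control barcodes (2.72 to 3.21%). The difference was −2.76 percentage points (−3.02 to −2.51), a share 14.8-fold higher in the control library. These shares are what the rule picked on and are a description. The visceral genes alone gave the same order: at least 2 of the 5 were found in 0.373% of NTD barcodes and 4.12% of control barcodes, whatever else they held. The share was lower in NTD in each of 4 classes of UMI count. In barcodes of 5000 or more UMIs it was 0.897% in NTD and 8.75% in control, and in barcodes below 2000 UMIs it was 0.0772% in NTD and 0.772% in control. With every barcode thinned to 1500 UMIs, and 3919 shallower control barcodes left out, the shares were 0.0682% (13 of 19056) in NTD and 1.45% (212 of 14653) in control.

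**Figure D1:**
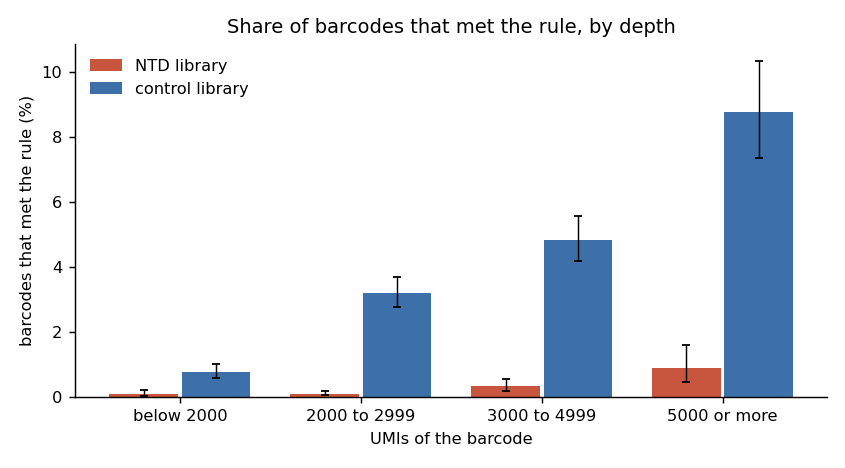
Percentage of barcodes that met the rule, by UMIs of the barcode, in the NTD library (left bar of each pair) and the control library (right bar). Bars are shares and whiskers exact 95% binomial intervals. In each depth class the NTD bar lies below the control bar, from 0.0772% against 0.772% in the shallowest to 0.897% against 8.75% in the deepest.

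Free RNA in the droplets sets a floor for such a rule. Among neuron-gene barcodes, a type not known for the GATA genes of the rule or for fibrillar collagens, 14 of 6931 NTD barcodes (0.202%, median 2822 UMIs) and 98 of 3843 control barcodes (2.55%, median 3040 UMIs) met the rule. Among barcodes with at least 6 neuron genes and no doublet call, the shares were 0.148% in NTD (3 of 2021) and 0.635% in control (8 of 1259). All barcodes without a doublet call gave 0.162% in NTD and 2.79% in control. The share over all NTD barcodes was thus not clearly above that among its neuron-gene barcodes. In control it was clearly above only against the stricter set. Neuron-gene barcodes include members and were deeper than all barcodes (medians of 2456 UMIs in NTD and 2234 in control). They are therefore no clean measure of free RNA. At least 4 neuron genes were found in 36.8% of NTD members and 17.9% of control members, close to the 35.3% and 20.1% of other mesenchyme-gene barcodes. Those are the 583 NTD and 1396 control barcodes with at least 3 of the 8 mesenchyme genes, none of the 5 visceral genes and none of the 4 excluded genes, and they serve as the comparison below. Scrublet marked 19.2% of them in NTD and 23.3% in control, against 28.9% and 21.1% of members.

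The 5 visceral genes were spread differently over the members of each library, although the rule fixed that some were present. In the same annotation as above, Gata4 is on chromosome 14 from 63198922 to 63271692, minus strand, and Gata6 on chromosome 18 from 11052064 to 11085635, plus strand. Adamts18 is on chromosome 8 from 113697126 to 113848738, minus strand. Wt1 was found in 44.7% of NTD members and 65.0% of control members, and Wt1os in 23.7% and 46.4%. Adamts18 likewise was in 21.1% of NTD members and 45.0% of control members. Gata4 had the opposite order, at 73.7% of NTD members and 41.5% of control members, and Gata6 was in 63.2% and 46.6%. Both GATA genes together were found in 20 NTD members (52.6%) and 123 control members (22.4%), and Gata4 with Gata6 and no other visceral gene in 13 (34.2%) and 54 (9.84%). Wt1 or Wt1os was present in 19 of 38 NTD members and 423 of 549 control members (77.0%).

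**Figure D2:**
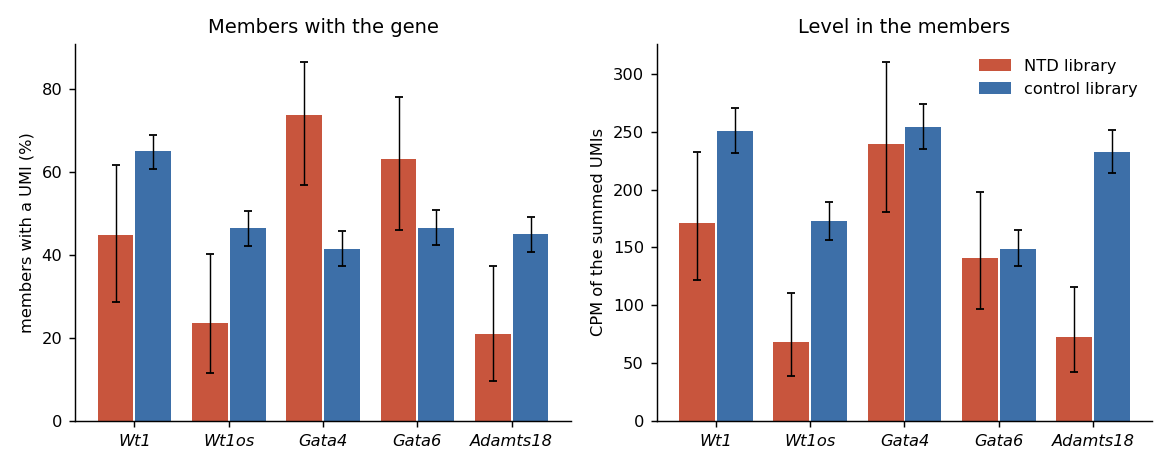
The 5 visceral genes of the rule in NTD members (left bar, n = 38 barcodes) and control members (right bar, n = 549 barcodes): percentage of members with a UMI (left panel, exact 95% binomial intervals) and CPM of the summed UMIs (right panel, exact 95% Poisson intervals). Gata4 and Gata6 were in more of the NTD members, and Wt1, Wt1os and Adamts18 in more of the control members.

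Most members met the rule narrowly. Exactly 2 visceral genes were found in 29 NTD members (76.3%) and 358 control members (65.2%), and all 5 in 0 and 6. The visceral UMIs of a member numbered 2 to 14 in NTD, median 3, and 2 to 29 in control, median 4. Of the mesenchyme genes, Col3a1 was the most frequent, in 57.9% of NTD members and 54.8% of control members, followed by Pdgfra in 36.8% and 42.3%. Postn, a matrix protein of fibroblasts, was in 2.63% of NTD members and 15.8% of control members, and Dcn, a small proteoglycan, in 21.1% and 9.65%. Collagen genes were the sole mesenchyme evidence in 12 NTD members (31.6%) and 179 control members (32.6%). The 4 excluded genes removed 17 of 55 NTD barcodes (30.9%) and 94 of 643 control barcodes (14.6%) that otherwise met the rule, mostly through Epcam and Myh6.

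Just outside the threshold stood barcodes with 1 visceral gene that met the other criteria, 284 in NTD and 1291 in control. Their level of Tbx20, a T-box factor of the heart, was 21.4 CPM (counts of the gene relative to all UMIs summed over the group) in NTD, against 58.3 CPM in NTD members with exactly 2 visceral genes. In control it was 30.3 CPM with 1 visceral gene and 70.4 CPM with 2. The 20 genes with the highest ratios of control members over other mesenchyme, described below, summed to 1317 CPM with 1 visceral gene and 3055 CPM with 2 in NTD, and to 2515 CPM and 4617 CPM in control. Barcodes with none of the 5 summed to 760 CPM in NTD and 1236 CPM in control. Above the threshold the 20-gene sum was 7004 CPM with 3 visceral genes in NTD (8 barcodes) and 5215 CPM in control (143 barcodes). With 4 genes it was 2352 CPM in NTD (1 barcode) and 5412 CPM in control (42 barcodes). The 20 genes were chosen in the control members, so their rise in control follows in part from that choice. Tbx20 did not go on upwards in control, at 42.7 CPM with 3 genes and 32.9 CPM with 4.

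Control members had higher levels of several mesothelial genes and of some transcription factors of the heart than other mesenchyme-gene barcodes of the same library, and lower levels of some limb and body wall genes. Ratios are log2 of CPM in members over CPM in the comparison barcodes with 0.5 counts added, over the 14481 genes with at least 20 UMIs in the total of both sums, the 17 rule genes left out. At least 2-fold higher in members were 398 genes (2.75% of those measured) and at least 2-fold lower 227 (1.57%), together 4.32%, and the median was 0.00. Because barcodes without visceral genes are compared with barcodes chosen for them, these values describe the members and are no test. Both groups were also chosen unequally on mesenchyme genes. The comparison barcodes needed at least 3, members only 1, and 202 of 549 control members (36.8%) held exactly 1. With at least 3 required of members too, 388 genes were higher and 345 lower.

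Some transcription factors and cofactors of the heart were among the higher genes. Tbx20 had 56.2 CPM in members and 13.5 CPM in other mesenchyme, a log2 ratio of 2.05 (1.64 to 2.48). Control members held 143 Tbx20 UMIs and NTD members 19, and 65 of these lay in the 18 barcodes of sub-cluster 9, described below. The level there was 1196 CPM, against 35.6 CPM in the other members of both libraries. Zfpm2, whose product FOG2 binds GATA4 in the heart and the gonad, had 591 CPM and 200 CPM (1.57, 1.45 to 1.68). Gata5, a GATA factor of endocardium and epicardium, had 10.2 CPM and 1.48 CPM (2.73, 1.60 to 4.14). Dpf3, a subunit of the BAF chromatin remodelling complex that acts in heart and muscle, had 229 CPM and 46.9 CPM (2.29, 2.07 to 2.51). Zbtb7c, a zinc-finger factor, had the highest ratio by the naming rule, with 80.6 CPM in members and 8.71 CPM in other mesenchyme (3.20, 2.75 to 3.70).

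Genes of the mesothelium, the sheet that lines the body cavities, formed the clearest group. Of 14 measured genes of the list, 5 were at least 2-fold higher in control members, none was lower, and the median was 0.64. Upk3b, a uroplakin of mesothelium, had 22.0 CPM in members and 2.78 CPM in other mesenchyme (2.95, 2.14 to 3.91). Aldh1a2, which makes retinoic acid in the coelomic lining, had 109 CPM and 33.3 CPM (1.71, 1.44 to 1.99). Podxl, a sialomucin of mesothelium and podocytes, had 64.5 CPM and 19.8 CPM (1.70). Bnc1, a zinc-finger factor of mesothelium and other epithelia, had 17.7 CPM and 5.37 CPM (1.71), and Upk1b 8.25 CPM and 3.71 CPM (1.15). Muc16 was below the limit of 20 UMIs, with 16 UMIs in members and none in other mesenchyme. Msln, the mesothelin gene, was at 0 UMIs in members and in other mesenchyme of both libraries.

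Other organ lists each gave 1 or 2 genes, not a program. In the epicardium list 1 of 5 was higher: Tcf21, a bHLH factor of epicardium and organ stroma, had 21.6 CPM in members and 5.19 CPM in other mesenchyme (2.05, 1.38 to 2.77), whereas Tbx18 had 26.3 CPM and 29.3 CPM (−0.15, −0.59 to 0.27). In the lung list 1 of 8 was higher, the signalling ligand gene Wnt2, with 29.5 CPM and 5.56 CPM (2.39, 1.78 to 3.07). In the nephrogenic list 1 of 16 was higher, Pax8 (16.5 CPM and 5.19 CPM, 1.66), and 1 was lower. The septum transversum list, which covers precursors of liver stroma, had 1 of 12 higher, Colec11 (1.49, from 16 UMIs in members), and none lower. Of 6 measured gonad and adrenal genes none was higher or lower. The splanchnic list had 2 of 13 higher, Gata5 and Tbx20, and 1 lower. The gut mesenchyme factor Foxf1 was rare, at 6.68 CPM in members and 4.45 CPM in other mesenchyme (0.60, −0.40 to 1.54), and Nkx2-3 of gut and spleen had 3.14 CPM and 3.71 CPM. The heart valve and cushion list had 2 of 11 higher, again Gata5 and Tbx20, and none lower, at a median of −0.15. The list summed to 655 CPM in members and 837 CPM in other mesenchyme. Over all control members, the name visceral mesenchyme thus rested on the rule genes, on Tbx20, Gata5 and Zfpm2 and on some mesothelial genes. It rested little on gut or valve markers.

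Genes of limb, head and body wall mesenchyme stood on the other side, against barcodes that had to hold more mesenchyme genes than members. In the limb and body wall list 4 of 13 were at least 2-fold lower in control members, none was higher, and the median was −0.57. Tbx15, a T-box factor of body wall and limb mesenchyme, had 36.2 CPM in members and 157 CPM in other mesenchyme (−2.11, −2.44 to −1.81). Prrx1, a homeobox factor of limb and craniofacial mesenchyme, had 174 CPM and 397 CPM (−1.18, −1.34 to −1.04). Meox2 had 6.68 CPM and 27.0 CPM (−1.98), and Lmx1b, a factor of the dorsal limb, 19.7 CPM and 53.7 CPM (−1.44). Zic1 and Zic4, factors of the dorsal neural tube and the somites, were lower too, at ratios of −1.12 and −1.44. The head mesenchyme list had 1 of 14 lower at a median of −0.54, and the cartilage list 2 of 9 at −0.62.

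Further genes that led the control members serve adhesion, matrix and excitability. Adam12, a metalloprotease of mesenchyme, had 218 CPM in members and 56.7 CPM in other mesenchyme (1.94). Ltbp1, which tethers latent TGF-beta to matrix, had 355 CPM and 130 CPM (1.45), Tnc (tenascin-C) 87.6 CPM and 30.2 CPM (1.54), and Adamts9 214 CPM and 79.7 CPM (1.43). Kcnq5, a voltage-gated potassium channel gene, had 1021 CPM and 233 CPM (2.13), with 187 of its 2597 UMIs in 1 member. In the matrix list as a whole 3 of 36 genes were higher and 2 lower, at a median of 0.07, against 2.75% higher and 1.57% lower over all genes. In the WNT list 3 of 24 were higher (Wnt2, Wnt4 and Wnt9a), in the FGF and IGF list 2 of 20, and in the BMP list 1 of 17 was higher (Smad6, 139 CPM in members and 67.3 CPM in other mesenchyme) and 1 lower (Chrdl1). In the retinoic acid list Aldh1a2 was the 1 gene of 13 that was higher, and Cyp26a1, which degrades retinoic acid, the 1 that was lower, from 3 UMIs (1.18 CPM) in members and 4.26 CPM in other mesenchyme (−1.66, −4.23 to −0.13). None of 16 Notch genes, 40 cell cycle genes or 13 AlkB and N6-methyladenine genes differed by 2-fold.

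Markers of other cell types were measured beside these. In control members 2 of 12 heart muscle genes were higher than in other mesenchyme, Ryr2 (42.8 CPM in members and 13.3 CPM in other mesenchyme, 1.68) and Myh7, and 1 of 11 endothelial genes, Flt1 (49.5 CPM and 23.7 CPM, 1.06). No gene of 14 neuron, 13 neural progenitor and 5 macrophage genes was higher, and 1 of 11 erythroid and 1 of 13 hepatocyte and yolk sac genes was lower. With members that held a gene of heart muscle or endothelium left out (Tnnt2, Myl7, Actn2, Ttn, Pecam1, Kdr, Tek or Emcn), 332 control members and 17 NTD members stayed. The ratios in control members over other mesenchyme were also taken without these members, without called doublets, sub-cluster 2 or the 5 deepest members, with at least 3 visceral genes, and with TMM scaling. Of these removals, only that of called doublets was also made in the comparison barcodes. Aldh1a2 then lay between 1.71 and 2.02, Upk3b between 2.92 and 3.48, and Tbx20 between 1.46 and 2.65.

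The NTD library, which did not choose these 30 genes, gave the same order in its own 38 members against its own 583 other mesenchyme barcodes. Of the 20 highest genes 19 had the same direction, 15 by at least 2-fold and 14 with an interval clear of 0, at a median of 2.01 against 0.01 for all measured genes. Over all 11496 genes measured there, 6.32% were at least 2-fold higher and 7.04% at least 2-fold lower, together 13.4%. Tbx20 had 81.1 CPM in NTD members and 5.26 CPM in NTD other mesenchyme, a log2 ratio of 3.93 (2.87 to 5.06). Without NTD members that held a heart muscle or endothelial gene, Tbx20 had 1 UMI (9.43 CPM) in place of 19. Aldh1a2 had 59.8 CPM and 5.63 CPM (3.41, 2.25 to 4.56), and Zfpm2 482 CPM and 234 CPM (1.05, 0.74 to 1.34). The exception was Tnc, with 12.8 CPM in NTD members and 20.7 CPM in NTD other mesenchyme (−0.48). Zfp804a, a zinc-finger gene at 2.07 in control, had 12.8 CPM and 13.5 CPM (0.12). All 10 lowest genes were lower in NTD members too, 6 by at least 2-fold, with Prrx1 at 98.2 CPM in members and 339 CPM in other mesenchyme (−1.76, −2.45 to −1.19). For Ppp2r2b, a gene of a phosphatase subunit, 32 of 43 UMIs of the NTD members were in 1 barcode. The members of both libraries were chosen by the same visceral genes. In both, the comparison barcodes had to hold more mesenchyme genes than members, so the same order of the lower genes is no separate support. Genes outside the rule thus went along with it in the NTD library as well, although the share of members there was not clearly above that among neuron-gene barcodes.

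**Figure D3:**
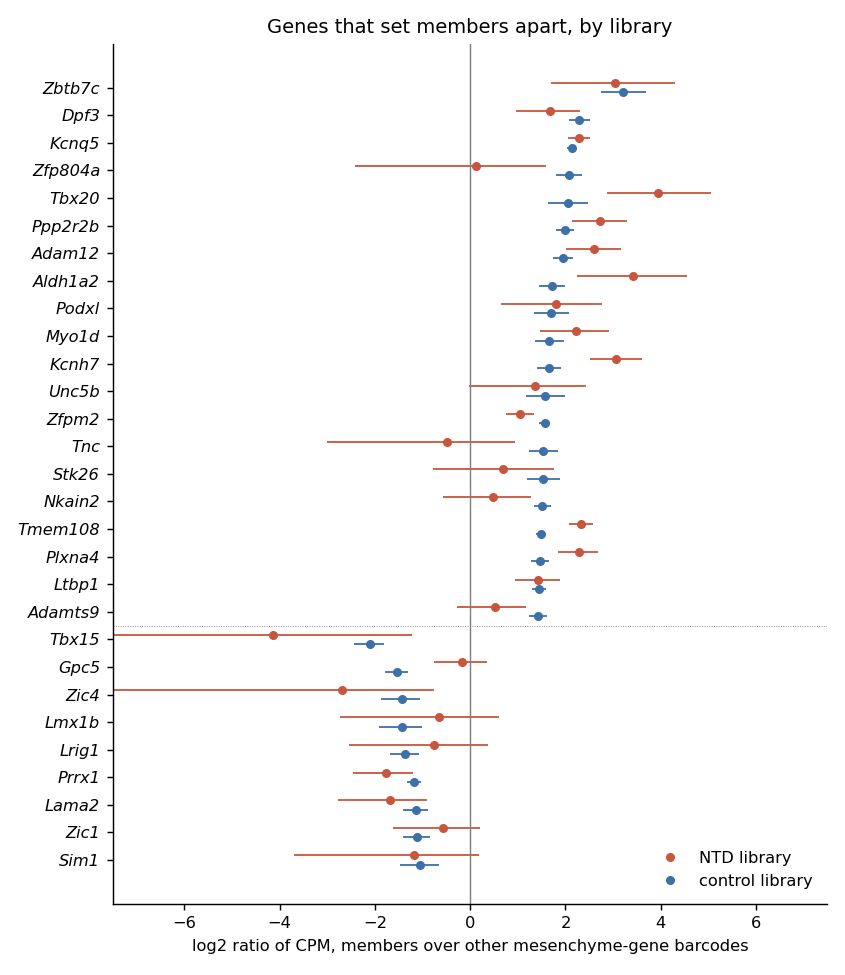
The 20 genes with the highest (above the dotted line) and 9 of the 10 with the lowest log2 ratio of members over other mesenchyme-gene barcodes, as chosen in the control library, plotted for the NTD library (upper point of each pair) and the control library (lower point). Points are log2 ratios of CPM and lines 95% counting intervals, drawn no further than the axis. NTD points lie on the same side of 0 as control points in all genes shown but Tnc.

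Within the control members, Tbx20 and Reln were lower in barcodes with Wt1, and Emx2 was higher. The 357 members with a Wt1 UMI were compared with the 192 without, over 11629 measured genes, of which 2.06% were at least 2-fold higher with Wt1 and 1.59% lower, together 3.65%. Tbx20 had 25.5 CPM in members with Wt1 and 121 CPM in members without (−2.24, −2.80 to −1.72). Reln, a secreted glycoprotein also made by liver stroma, had 27.2 CPM and 124 CPM (−2.18, −2.72 to −1.67). Pdlim3, a muscle and actin-associated PDZ-LIM protein, had 6.95 CPM and 53.9 CPM (−2.91), and Dkk2, a WNT antagonist, 60.8 CPM and 179 CPM (−1.55). On the other side, Emx2, a homeobox factor of the urogenital ridge, had 56.7 CPM with Wt1 and 23.3 CPM without (1.26, 0.57 to 2.08). Lingo2 had 65.4 CPM and 17.1 CPM (1.89), Prkcb 50.9 CPM and 15.9 CPM (1.63), and Zbtb7c 100 CPM and 39.2 CPM (1.34). Aldh1a2 leaned the same way, with 130 CPM and 66.1 CPM (0.96, 0.54 to 1.43). A member without Wt1 met the rule through Gata4, Gata6, Adamts18 or Wt1os, so the split also sorts by the other rule genes. It sorts by sub-cluster 9 (described below) as well, whose 5 NTD and 13 control barcodes all lacked Wt1. They held 65 Tbx20 UMIs and 46 Pdlim3 UMIs. The part of sub-cluster 9 in these ratios was not tested. Few list genes differed: in the mesothelium and coelomic list 3 of 12 were higher with Wt1 and 2 lower, at a median of 0.01. Of 4 epicardial genes none differed by 2-fold, 2 of 10 heart muscle genes were higher and 1 lower, and 3 of 9 heart valve and cushion genes were lower and none higher, at a median of −0.73.

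Clustering of the 587 members alone, on both libraries together, gave 11 sub-clusters of 14 to 112 barcodes. Their leading genes were used to form them and are given as a description. Sub-cluster 6, with 13 NTD and 26 control members, was mesothelium-like by 8 markers, against 6 of the next class, neural progenitor. It also had 5 heart muscle markers and 3 of 7 epicardium markers. Upk1b and Upk3b were each found in 33.3% of it, Tbx18 in 48.7%, Tcf21 in 41.0% and Gata4 in 92.3%. Sub-cluster 4, with 1 NTD and 42 control members, was also mesothelium and coelomic epithelium-like, by 6 markers against 3 of the next class. It was led by Lmx1a and Mybpc1, with Aldh1a2 in 65.1% and Wt1 in 88.4% of its barcodes.

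The other 9 sub-clusters stayed unnamed because no class led by the set margin, or the leading genes went against the name. Sub-cluster 0 (2 NTD, 110 control) was led by Rxfp2, a relaxin-family receptor gene, with Wt1 in 76.8% and Adamts18 in 66.1%. Sub-cluster 1 (1 NTD, 107 control) was led by Wnt2, found in 34.3%, with Gata6 in 73.1% and Tbx5 in 25.9%. Sub-cluster 3 (5 NTD, 51 control) was led by Colec10, Nr1h5 and Reln, with Gata4 in 94.6% and 6 septum transversum markers against 5 of the next class. Sub-cluster 5 (40 control) held Isl1, a factor of heart and limb progenitors, in 45.0%, and had 6 heart muscle and 5 mesothelium markers. Sub-cluster 8 (24 control) held Emx2 in 12 barcodes, Lhx9 in 37.5% and the gonad and adrenal factor Nr5a1 in 12.5%. It had 4 gonad and adrenal markers and also 4 heart muscle markers. Sub-cluster 9 (5 NTD, 13 control) was led by Pdlim3, Eng and Pde7b, and held Tbx20 in 55.6%, Gata4 and Gata6 in all and Wt1 in none. It had 9 endothelial markers, 7 heart valve and cushion markers and 8 doublet calls in 18 barcodes.

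Some sub-clusters looked mixed. Sub-cluster 2 (7 NTD, 88 control) had a median of 8040 UMIs, 77 doublet calls in 95 barcodes and 11 neuron markers. Sub-cluster 7 (4 NTD, 34 control) had a median of 2005 UMIs and 7 erythroid and 7 hepatocyte markers, led by Afp. Hbb-y, an embryonic globin gene, had a UMI in every member of every sub-cluster. Without sub-cluster 2, the members numbered 31 in NTD and 461 in control, a share 15.3-fold higher in the control library. As each group is 1 library, a sub-cluster that came mostly from control may stand for that library and not for a cell type. Sizes are given as a description only.

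**Figure D4:**
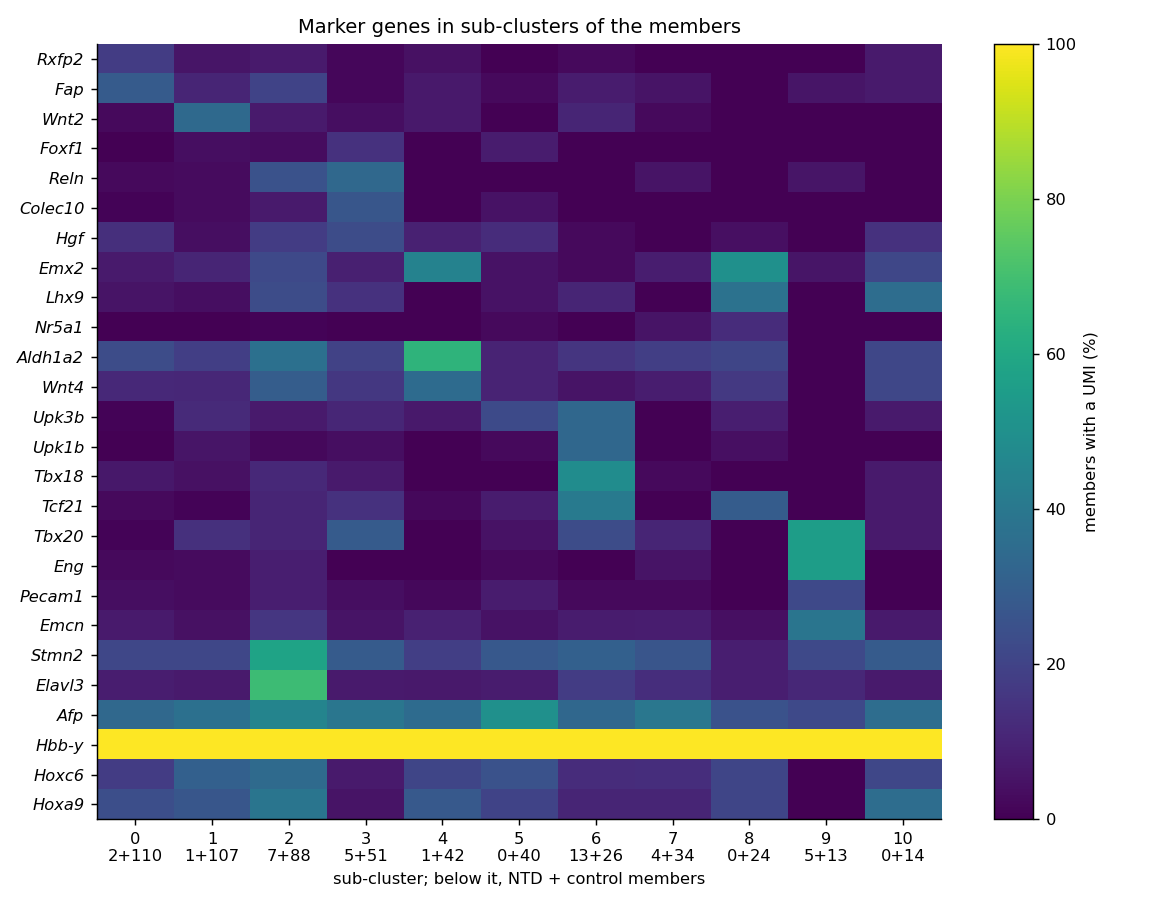
Percentage of members with a UMI (colour) of 26 marker genes (rows) in 11 sub-clusters (columns, with the number of NTD + control members beneath). Upk3b, Upk1b, Tbx18 and Tcf21 stand out in sub-cluster 6, Aldh1a2 in 4, Wnt2 in 1, and Tbx20 and Eng in 9. Hbb-y is at 100% throughout.

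Between the libraries, NTD members had lower levels of Hox and liver or yolk sac genes and higher levels of ribosomal protein genes, and other mesenchyme moved the same way. Of 11846 genes measured over both sums of members, 644 were at least 2-fold higher in NTD (5.44%) and 1326 at least 2-fold lower (11.2%), together 16.6%, at a median of −0.10. In other mesenchyme 1.53% of 14336 genes were higher in NTD and 5.21% lower, together 6.75%, at a median of −0.13. The NTD members are few, and a count of 3 UMIs over them is already 12.8 CPM, against 1.18 CPM over the control members.

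Most Hox genes, which give cells their position along the trunk, had lower levels in NTD members. In groups 1 to 4, expressed from the hindbrain backwards, 6 of 7 measured genes were at least 2-fold lower in NTD members, and the list summed to 171 CPM in NTD and 550 CPM in control. In groups 5 to 8, of the neck and thorax, 8 of 10 were lower (68.3 CPM in NTD and 359 CPM in control), and in groups 9 to 13, of the lumbar region and tail, 6 of 8 (51.2 CPM and 231 CPM). The medians were −1.48, −2.22 and −1.88, or −1.48, −1.79 and −0.70 with genes at 0 UMIs set to their bound against 3 counts. None of these genes was at least 2-fold higher. For groups 1 to 4 the result depended on which members were used: 2 of 7 were lower without called doublets, 2 of 7 without sub-cluster 2 and 1 of 7 without members that held a heart muscle or endothelial gene. In thinned barcodes, with 4 genes measured, their median was 0.090 and Hoxb3 was at 0.42. Genes of groups 5 to 13 depended on the members too. Without members that held a heart muscle or endothelial gene, Hoxa9 was at −0.92 (−2.99 to 0.32) and Hoxc6 at −1.18 (−3.70 to 0.20). Hoxb6 was then at −1.12 (−3.64 to 0.26) and Hoxa5 at −1.58 (−7.48 to 0.39). Without called doublets, the intervals of Hoxb6 and Hoxa5 reached 0, whereas those of Hoxc6 and Hoxa9 did not. Hoxa3 had 51.2 CPM in NTD members and 115 CPM in control members (−1.11, −2.13 to −0.34). Hoxc4 had 34.1 CPM and 109 CPM (−1.59, −2.90 to −0.68), and Hoxa9 21.3 CPM and 76.6 CPM (−1.71, −3.48 to −0.60). Hoxc5 had no UMI in NTD members and 107 UMIs in control members (42.1 CPM), at least 3.28-fold lower. Hoxa10 likewise had none against 80 UMIs, at least 2.46-fold lower.

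The same genes were lower in other mesenchyme of the NTD library, so the shift was not particular to the members. There 9 of 10, 10 of 10 and 10 of 10 genes of these groups were at least 2-fold lower in NTD, at medians of −3.41, −3.69 and −3.86. The levels left in the NTD library were higher in members than in other mesenchyme: groups 1 to 4 summed to 171 CPM in members and 47.7 CPM in other mesenchyme, groups 5 to 8 to 68.3 CPM and 18.8 CPM, and groups 9 to 13 to 51.2 CPM and 15.8 CPM. In control members and control other mesenchyme they summed to 550 CPM and 499 CPM, 359 CPM and 286 CPM, and 231 CPM and 224 CPM. Some of the NTD values rest on few barcodes: without the 5 deepest members, Hoxc6 had 0 UMIs in place of 4, Hoxb6 0 in place of 3 and Hoxa9 0 in place of 5. The antisense transcript Hoxaas3, which lies in the Hoxa cluster, had 2 UMIs (8.54 CPM) in NTD members and 101 CPM in control members (−3.25, −6.62 to −1.70). A lower share of trunk tissue in a library and less Hox RNA per cell cannot be told apart here, nor can fewer cells of a type and less RNA per cell for any other list.

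Liver and yolk sac genes were lower in NTD members as well, 6 of 10 by at least 2-fold, at a median of −1.73 (−0.71 with genes at 0 set to their bound). The list summed to 128 CPM in NTD and 461 CPM in control. Afp, the fetal serum protein gene, had 25.6 CPM in NTD members and 151 CPM in control members (−2.45, −4.02 to −1.43). Apoa1 had no UMI in NTD members and 132 UMIs in control members, at least 4.05-fold lower. In other mesenchyme 11 of 12 genes of the list were lower in NTD, at a median of −3.36. As the levels in control members and control other mesenchyme were alike (Afp at 151 CPM in both), these genes did not mark the members.

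A few mesothelial and epicardial genes were higher in NTD members, whereas the mesothelial list as a whole was not. Of its 12 measured genes 3 were higher and 1 lower, at a median of −0.09, and the list summed to 819 CPM in NTD members and 997 CPM in control members. Upk1b had 59.8 CPM in NTD members and 8.25 CPM in control members (2.87, 1.77 to 3.90), with a UMI in 9 of 38 and 16 of 549. Upk3b had 64.0 CPM and 22.0 CPM (1.57, 0.61 to 2.38), in 11 of 38 and 44 of 549. Tcf21 had 64.0 CPM and 21.6 CPM (1.60, 0.64 to 2.41), in 13 of 38 and 37 of 549, and Gpm6a 72.6 CPM and 28.3 CPM (1.39). Osr1, a factor of early lateral and intermediate mesoderm, had 51.2 CPM in NTD members and 11.8 CPM in control members (2.15, 1.02 to 3.13). Aldh1a2 went the other way, with 59.8 CPM in NTD and 109 CPM in control (−0.82, −1.76 to −0.10). The mesothelial gene that was lower was Efemp1 (−1.49, −4.88 to 0.10, from 2 UMIs in NTD), and of 4 epicardial genes 1 was higher, Tcf21. The libraries' members were spread differently over the sub-clusters: sub-cluster 6, which Upk1b leads and which holds Upk3b, Tcf21 and Tbx18, held 34.2% of NTD members and 4.74% of control members. Its leading genes helped to form it, so this is a description, and its part in these ratios was not tested. Tbx20 had 81.1 CPM in NTD members and 56.2 CPM in control members (0.56, −0.24 to 1.22), and −2.32 with members that held a heart muscle or endothelial gene left out. Without those members Tcf21 was at 1.19 (−0.94 to 2.60), from 4 UMIs in NTD. Upk3b was then at 1.88 (0.47 to 3.00) and Upk1b at 2.66 (0.39 to 4.47).

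By size alone, other genes stood at the top. Xist, the X-inactivation RNA, was left out of the ranks and had 1656 CPM in NTD members and 93.5 CPM in control members (4.14, 3.91 to 4.38), and 3.66 in other mesenchyme. The labels do not state the sex of the embryos. Tsix, the antisense transcript of the X-inactivation centre, had 316 CPM in NTD members and 25.5 CPM in control members (3.63, 3.13 to 4.13), in 27 of 38 and 24 of 549. It overlaps Xist on the opposite strand, and whether counting kept the strands apart is not given, so its reads may be those of Xist. It was higher in NTD other mesenchyme too (3.17). Mical2, an actin-oxidising enzyme gene, had 102 CPM in NTD and 38.1 CPM in control (1.45, 0.72 to 2.08), but −0.07 in other mesenchyme. It was also higher in members than in other mesenchyme within each library, at 102 CPM against 4.51 CPM in NTD and 38.1 CPM against 4.82 CPM in control. Tafa1 stood high through 1 barcode, which held 28 of its 34 UMIs in NTD members. Snrpf, of the splicing machinery, had 405 CPM and 136 CPM (1.58), and Rpa3, of the replication protein A complex, 115 CPM and 34.6 CPM (1.75). Of the 10 highest genes 7 had the same direction in other mesenchyme, and of the 10 lowest all 10.

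Among the lowest genes, Angpt1, a ligand of endothelial TIE2, had 34.1 CPM in NTD members and 210 CPM in control members (−2.53, −3.84 to −1.63). Nrg3, a ligand gene of the ERBB4 receptor, had 17.1 CPM and 128 CPM (−2.74, −4.79 to −1.54). Zfp804a had 3 UMIs (12.8 CPM) in NTD members and 129 CPM in control members (−3.11, −5.62 to −1.77). Tnc, from 3 UMIs in NTD members, had 12.8 CPM and 87.6 CPM (−2.56, −5.06 to −1.21), and Adamts9 81.1 CPM and 214 CPM (−1.37, −2.14 to −0.74). In the matrix list 7 of 32 genes were lower in NTD members and none higher, at a median of −0.31 (−0.23 with genes at 0 set to their bound). Of all measured genes 11.2% were lower, and 4 genes of the list were at 0 UMIs in NTD members.

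Among signalling lists, WNT and FGF with IGF had more genes lower than higher in NTD members. In the FGF and IGF list 5 of 17 were lower and 2 higher, at a median of −0.32. The retinoic acid, hedgehog and BMP lists had 1 of 12, 1 of 12 and 2 of 15 lower, against 11.2% of all genes, and the Notch list had 2 of 12 higher and none lower. In the WNT list 5 of 19 were lower and none higher, among them Dkk2 with 21.3 CPM in NTD and 98.6 CPM in control (−2.07, −3.84 to −0.97). Ror1, a receptor gene of non-canonical WNT signalling, had 243 CPM and 538 CPM (−1.13, −1.55 to −0.76). Fgf10, a growth factor gene of lung and limb mesenchyme, had 3 UMIs (12.8 CPM) in NTD and 55.8 CPM in control (−1.91, −4.42 to −0.55). Rarb, a retinoic acid receptor gene, had 98.2 CPM and 233 CPM (−1.22, −1.92 to −0.65), whereas Cyp26b1, which degrades retinoic acid, had 46.9 CPM and 14.1 CPM (1.77, 0.61 to 2.74). Lhx9, a factor of gonad and limb, had 1 UMI (4.27 CPM) in NTD and 31.0 CPM in control (−2.29, −8.18 to −0.34). In the nephrogenic list 6 of 12 were lower and 1, Osr1, higher, at a median of −0.82 (−0.50 at the bound). In the limb list 4 of 11 were lower and 1 higher.

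Ribosomal protein genes were the main group that was higher in NTD members, 38 of 77 by at least 2-fold and none lower, at a median of 1.00. In other mesenchyme 1 of 77 was at least 2-fold higher, and the median was 0.72. Rpl39 had 1020 CPM in NTD members and 379 CPM in control members (1.43, 1.22 to 1.64). Globin and other erythroid genes were higher in 5 of 10, at a median of 0.98. That count was 0 of 10 without the 5 deepest members of each library and 0 of 9 without sub-cluster 2. Heart muscle genes gave 3 of 10 higher (Myl7, Tnnt2 and Myl3) and 2 lower, neuron genes 2 of 13 higher, and neural progenitor genes 3 of 12 higher. Beyond the runs that left out called doublets, sub-cluster 2, the 5 deepest members or members with a heart muscle or endothelial gene, the part of these cells was not tested.

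Of the pathways that the study and its drug point to, folate genes and p53 targets had the most genes past 2-fold among the 4 lists given here. In the folate and one-carbon list 5 of 21 genes were lower, against 11.2% of all genes, and none was higher, at a median of 0.16. Mthfd1, an enzyme of the folate cycle, had 2 UMIs (8.54 CPM) in NTD members and 42.1 CPM in control members (−1.99, −5.36 to −0.41). Shmt1, Mthfd2 and Slc19a1 rested on 1 to 4 UMIs in NTD members with intervals that reached 0, and in other mesenchyme none of 22 differed by 2-fold. In the AlkB list 1 of 12 was higher, Alkbh2 (29.9 CPM in NTD and 13.8 CPM in control, 1.20, −0.30 to 2.31). Alkbh1 itself had 188 CPM in NTD members and 229 CPM in control members (−0.27, −0.76 to 0.16). Of 23 genes that write, read or erase H3K9 methylation 2 were lower and none higher, at a median of −0.21. Of 16 p53 targets 4 were higher, against 5.44% of all genes, and none was lower, at a median of 0.11. Ccng1, which encodes cyclin G1, was at 29.9 CPM in NTD and 7.86 CPM in control (1.99, 0.44 to 3.23). In other mesenchyme 1 of 21 p53 targets was higher and none lower, at a median of 0.00. None of 40 cell cycle genes was at least 2-fold different.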

How the data were processed

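Single-cell 3′ RNA (10x Genomics Chromium, v3 chemistry per the labels) was measured in 1 NTD and 1 control library. The authors deposited UMI counts without normalization, which Cell Ranger 7.0.1 wrote, per the file headers. STAR and mm10 are named as well, per the submitters' processing notes. Which annotation, intron or strand setting and cell calling they used is not stated by the headers or labels. All barcodes were kept. Gene locations came from GENCODE M21, which matched 32235 of 32285 gene IDs.

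The members and the 41 gene lists were chosen with earlier results of these data known. UMIs were summed over the members of each library and scaled to CPM. Genes with at least 20 UMIs over both sums were measured, log2 ratios had 0.5 counts added, and at least 2-fold counted as different. With 1 library per group no test was run and no p-value computed. CPM has exact Poisson intervals, ratios exact conditional binomial intervals, shares Clopper-Pearson intervals and their differences Newcombe intervals, all at 95%. UMIs share cells and a library, so intervals cover counting error only. Against a sum of 0, the fold was taken against 3 counts over the group. The ratio step was checked on simulated counts.

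Genes were named by rule: the 20 highest and 10 lowest in control members over other mesenchyme (at least 50 CPM), the 10 highest and 10 lowest in NTD over control members (at least 100 CPM) and in the Wt1 split (at least 50 CPM), the 5 leading genes of each sub-cluster, and up to 6 genes of each list above 20 CPM. Haemoglobin, Xist, Y-linked and predicted genes were left out of these ranks. List genes below 20 CPM, Hbb-y and the marker rows of the sub-cluster plot were chosen after their values were seen. A few genes that the rule names are not reported here.

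Members were clustered on 1000 variable genes, 20 principal components and 15 neighbours with Leiden at resolution 1.0 (scanpy 1.11.5, leidenalg 0.10.2), without integration. A name needed 3 markers, each in at least 10% of a sub-cluster and 1.25-fold higher there, and a lead of 2 over the next class. Doublets were called with Scrublet per library (its default rate called none, so the expected rate was scaled to the number of barcodes) and kept in the main values. The software was Python 3.11.15 with numpy 2.4.6, scipy 1.17.1 and pandas 2.3.3, and edgeR 4.0.16 in R 4.3.3 for TMM factors alone. Alternatives were doublet removal, a matched UMI floor, thinning, stricter or changed rules, another denominator, TMM scaling and other UMI minimums.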

Additional observations from a re-analysis of the deposited data

How the results depend on the processing

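No paired analysis was possible because each group is 1 library, and for the same reason no replicate could be left out. The share of members was lower in NTD under all 11 alternatives. The difference was −2.76 points, and −2.63 without called doublets. It was −3.62 above a matched floor of 1589 UMIs, −1.38 in thinned barcodes, −2.17 without Wt1os in the rule, −0.981 with at least 3 visceral genes, −0.938 with at least 3 mesenchyme genes and −1.86 without collagens. Over mesenchyme barcodes as the denominator it was −8.39. In 3 alternatives chosen after seeing the data, it was −2.76 without the 5 deepest members of each library, −2.32 without sub-cluster 2 and −1.70 without members that held a heart muscle or endothelial gene.

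The counts of genes that differed by 2-fold depended on the setting. In NTD over control members, the 644 higher genes became 971 with TMM scaling (which moved the median of all genes from −0.10 to 0.06), 985 without the 5 deepest members, 280 with at least 50 UMIs and 5276 with no minimum. The 1326 lower genes became 842 in thinned barcodes and 821 with at least 50 UMIs. In control members over other mesenchyme, the 398 higher genes became 781 against other barcodes with 1 mesenchyme gene, 195 with at least 50 UMIs and 2832 with no minimum. The 227 lower genes became 373 without doublets, 383 with at least 3 visceral genes, 345 with at least 3 mesenchyme genes, 568 against other barcodes with 1 mesenchyme gene, 740 without sub-cluster 2, 425 without heart muscle or endothelial members, 90 with at least 50 UMIs and 1541 with no minimum. In this comparison sub-cluster 2, heart muscle or endothelial members and the 5 deepest were left out of the members alone. The comparison barcodes stayed as they were, so genes of the removed members fell in part by that choice. Without heart muscle or endothelial members, Tnnt2 was at −5.73 and Myl7 at −5.12. Other causes were not tested, apart from the minimums, which change how many genes are measured.

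In thinned barcodes, with 13 NTD members, NTD over control reversed for Tafa1 (−0.83), Bola2 (−1.33), Bsg (−0.83), Hoxb3 (0.42) and the median of Hox groups 1 to 4 (0.090, from 4 genes). The skeletal muscle median became 0.051 without heart muscle or endothelial members. Over all alternatives, list medians stayed within their counting interval 393 times in NTD over control members, moved 11 times and reversed 2 times, and in control over other mesenchyme stayed 455 times and moved 21 times. Ratios of named genes stayed 185 times, moved 20 times and reversed 4 times in NTD over control members, and stayed 222 times and moved 126 times in control over other mesenchyme. Without the 5 deepest members, Ppp2r2b in NTD over control was −4.47, against −0.47 with them. At resolutions of 0.5 and 1.5 the members formed 8 and 14 sub-clusters, and 97.4% and 100% of sub-cluster 6 stayed together. The NTD members' 234296 UMIs limit every ratio that uses them.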
